A study of Arabidopsis thaliana with 8 samples.

Results

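Buds of the jmj13 mutant were compared directly with buds of the ref6 mutant. Each genotype was represented by 2 libraries, so 4 of the 8 libraries of the series were compared, and all genes with enough reads were tested (19939 of 25738 genes with a read in any library). Both mutants are Arabidopsis thaliana T-DNA insertion lines in the Col-0 background, sampled as buds of floral stages 9 to 13 from the primary inflorescence of soil-grown plants in long days. According to the methods, jmj13 is a GABI insertion line and the ref6 allele is ref6-1, and each genotype is 1 insertion line. The study describes this ref6 allele as one whose insertion spares the demethylase domain, so ref6 buds may keep some REF6 activity. The other 4 libraries, from Col-0 and elf6 buds, entered the scaling, the filter and the estimate of the spread but not the contrast, and their levels are given beside some genes. Nothing in the labels says whether replicates came from separate plants, so the p-values measure only the spread between these libraries, which may be technical.

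JMJ13 and REF6 are jumonji-type histone demethylases that remove methyl groups from lysine 27 of histone H3, a repressive mark that the Polycomb Repressive Complex 2 (PRC2) writes. REF6 reaches its target loci in part through zinc fingers that recognise a short DNA motif. Loss of either enzyme can therefore leave genes in a silenced state, and the direct comparison asks which transcripts differ between buds of the jmj13 line and buds of the ref6 line. Flower buds at these stages contain growing stamens and carpels, developing pollen and ovules, and green sepals.

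The 4 libraries held 11373306 to 12048319 expected counts, the reads that the quantification assigned to each gene. All levels below are CPM, counts scaled to a common library size with TMM factors that correct for library composition, and each difference is the fitted log2 ratio of jmj13 to ref6 with its standard error (SE). A single ref6 library stood apart. In ref6 replicate 1 the top 50 genes by count held 30.5% of all reads, against 18.4% and 18.8% in jmj13 and 20.3% in ref6 replicate 2, and its TMM factor was 0.742, against 1.218, 1.161 and 1.07. Among the other libraries, Col-0 replicate 1 had a similar share and factor, at 29.3% and 0.739. The replicates of jmj13 differed from each other with an SD of 0.408 over all genes on the log2 scale, and those of ref6 with an SD of 0.685. Values without ref6 replicate 1 are therefore given for the genes past the threshold and for most of the lists. They are also given for most other described genes whose difference that library moved by more than 1.5 times. The flower organ identity genes AP1, AP3, PI, AG and SEP3 were present in all 4 libraries, and the seed storage genes CRA1, CRU3 and SESA1 to SESA4 and the oleosin OLEO1 stood at or below 1.61 TPM, a level scaled for gene length and library. The oleosins OLEO3 and OLEO4 were higher, at means of 5.08 and 13.1 TPM in the higher genotype. The meiotic gene ASY1 and the early tapetum gene DYT1 were near 0, at no more than 0.33 TPM. The meiotic gene DMC1 stood at 10.1 and 10.2 TPM in jmj13 and at 5.69 and 6.96 TPM in ref6. TPM values are not corrected for library composition, and as a ratio of mean TPM the median log2 difference of all tested genes was 0.45.

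Reads over the mutated genes did not separate the genotypes. JMJ13 stood at 3.23 and 3.41 CPM in jmj13 and at 2.37 and 3.88 CPM in ref6. REF6 stood at 14.4 and 9.40 CPM in jmj13 and at 14.7 and 9.24 CPM in ref6, and ELF6, a related demethylase gene mutated in neither, at 10.6 and 10.005 CPM against 10.7 and 9.16 CPM. The fitted differences were 0.07 ± 0.44 (SE) for JMJ13 and 0.00 ± 0.34 for REF6, with overlapping libraries in each case. A count over a whole gene does not tell a transcript interrupted by an insertion from an intact one, so these totals do not check the labels. The 2 other demethylases, JMJ30 and JMJ32, also overlapped between genotypes, and the difference of JMJ30 moved from -0.04 to 0.63 without ref6 replicate 1. Of 6 tested PRC2 subunits none passed the test. VRN2 had the smallest unadjusted p, at 9.98 and 6.59 CPM in jmj13 and 3.73 and 5.36 CPM in ref6, a difference of 0.85 ± 0.33 (edgeR quasi-likelihood test, adjusted p = 0.499). For the catalytic subunits the differences were -0.02 in CLF, which turned positive with library size or upper-quartile scaling, and 0.41 in SWN.

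A total of 6 genes passed the test at an adjusted p under 0.05 and a difference of at least 2-fold, 0.0301% of the genes tested. Of these, 2 were higher in jmj13 and 4 were lower. With DESeq2 in place of edgeR the count was 167, and all 6 were among them. Without a correction for multiple testing, 681 genes (3.42%) lay above and 1107 genes (5.55%) below ref6 at p under 0.05. At least 2-fold apart, with both jmj13 libraries on one side of both ref6 libraries, were 643 genes (3.22%) on the higher side and 791 (3.97%) on the lower side; these counts carry no test. How the unadjusted calls split by direction depended on scaling: 38.1% were on the higher side with TMM, 50.3% with upper-quartile scaling and 84.5% with library size alone, which moved the median difference of all genes from 0.04 to 0.42. Leaving out either jmj13 library left no gene past the threshold, with 579 and 987 genes at an unadjusted p under 0.05.

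**Figure D1:**
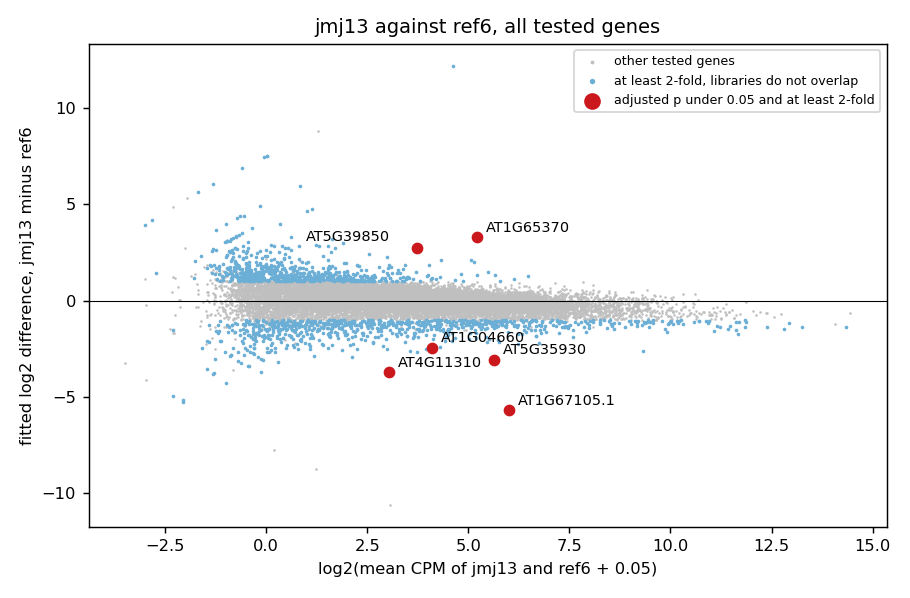
Each point is a tested gene, with the log2 of its mean CPM over jmj13 and ref6 (plus 0.05) on the horizontal axis and the fitted log2 difference, jmj13 minus ref6, on the vertical axis. Red points are the 6 genes past the threshold, of which 2 lie above 0 and 4 below, and blue points are genes at least 2-fold apart whose libraries did not overlap.

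AT1G65370 encodes a TRAF-like family protein and lies at chr1:24284469-24286347 on the minus strand in the TAIR10.1 RefSeq annotation, with 5 exons. It stood at 68.6 and 65.6 CPM in jmj13 and at 5.31 and 8.38 CPM in ref6. Both Col-0 libraries (29.5 and 38.5 CPM) and both elf6 libraries (51.0 and 51.7 CPM) lay between the mutants compared. The gene was 9.71-fold higher in jmj13 than in ref6 (log2 difference 3.28 ± 0.30, edgeR quasi-likelihood test, adjusted p = 0.00876), and 3.00 without ref6 replicate 1 (adjusted p = 0.0321). A related gene, AT1G65150, with 79.9% identity over 881 aligned bases, had a difference of 1.84, and reads from such copies may be shared.

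AT5G39850, annotated as ribosomal protein S4 (chr5:15949910-15951475, plus strand), stood at 21.7 and 24.6 CPM in jmj13 and at 2.71 and 4.19 CPM in ref6. Col-0 (20.7 and 23.2 CPM) and elf6 (24.5 and 26.4 CPM) were at the level of jmj13, so the low libraries were those of ref6. The transcript was 6.61-fold higher in jmj13 (log2 difference 2.72 ± 0.28, edgeR, adjusted p = 0.0109). Without ref6 replicate 1 it was 2.46 and no longer passed (adjusted p = 0.0627). Its close copy AT5G15200 has 80.5% identity over 599 bases and had many more reads, at 1333 and 1361 CPM in jmj13 and at 2017 and 1330 CPM in ref6, with overlapping libraries.

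The largest of the 6 differences was that of AT1G67105.1, a non-coding RNA gene at chr1:25057479-25058264 on the plus strand. It stood at 2.73 and 2.12 CPM in jmj13 and at 184 and 68.4 CPM in ref6. Both elf6 libraries were below jmj13, at 0.316 and 1.60 CPM, and Col-0 was between, at 25.0 and 10.7 CPM. The ref6 replicates themselves differed, and the transcript was 51.7-fold lower in jmj13 (log2 difference -5.69 ± 0.68, edgeR, adjusted p = 0.0308). Without ref6 replicate 1 the difference was -4.81 (adjusted p = 0.0354), and without ref6 replicate 2 it was -6.24.

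AT4G11310 encodes a papain-family cysteine protease (chr4:6883513-6885517, plus strand). In jmj13 it stood at 1.15 and 1.14 CPM, and in ref6 at 14.4 and 16.1 CPM. Col-0 (1.94 and 3.62 CPM) and elf6 (4.82 and 6.15 CPM) lay between, so ref6 had the highest libraries. It was 13.2-fold lower in jmj13 (log2 difference -3.73 ± 0.38, edgeR, adjusted p = 0.0109), and the difference was -3.81 without ref6 replicate 1 (adjusted p = 0.0321). The neighbouring copy AT4G11320 shares 86.8% identity over 1355 bases and stood at 257 and 314 CPM against 375 and 483 CPM, a difference of -0.59 that did not pass the test.

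The remaining genes of the 6 had their lowest libraries in jmj13. AT5G35930, an AMP-dependent synthetase and ligase family gene with 17 exons (chr5:14066567-14075018, minus strand), stood at 9.33 and 11.9 CPM in jmj13 and at 122 and 56.6 CPM in ref6. Col-0 (107 and 66.3 CPM) was near ref6, and elf6 (41.5 and 44.0 CPM) was lower than ref6 but above jmj13. The fall was 8.40-fold (log2 difference -3.07 ± 0.40, edgeR, adjusted p = 0.0452). Without ref6 replicate 1 the difference was -2.41 and did not pass (adjusted p = 0.0819), nor did it with DESeq2 size factors (adjusted p = 0.0529) or, at -1.65, with limma on log2(FPKM + 1) (adjusted p = 0.148). AT1G04660, a glycine-rich protein gene (chr1:1300368-1301773, minus strand), stood at 4.45 and 6.06 CPM in jmj13 and at 32.6 and 25.1 CPM in ref6, while Col-0 (24.0 and 21.0 CPM) and elf6 (21.7 and 35.6 CPM) overlapped with or lay near ref6. It was 5.48-fold lower in jmj13 (log2 difference -2.45 ± 0.32, edgeR, adjusted p = 0.0452), and the difference was -2.26 without ref6 replicate 1 (adjusted p = 0.137). With library size as the only scaling, AT1G04660 and AT4G11310 no longer passed, at edgeR adjusted p values of 0.162 and 0.074. AT1G04660 did not pass with DESeq2 size factors either (edgeR, adjusted p = 0.0529). With limma on log2(FPKM + 1) neither gene passed, at adjusted p values of 0.121 for AT1G04660 and 0.0636 for AT4G11310.

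**Figure D2:**
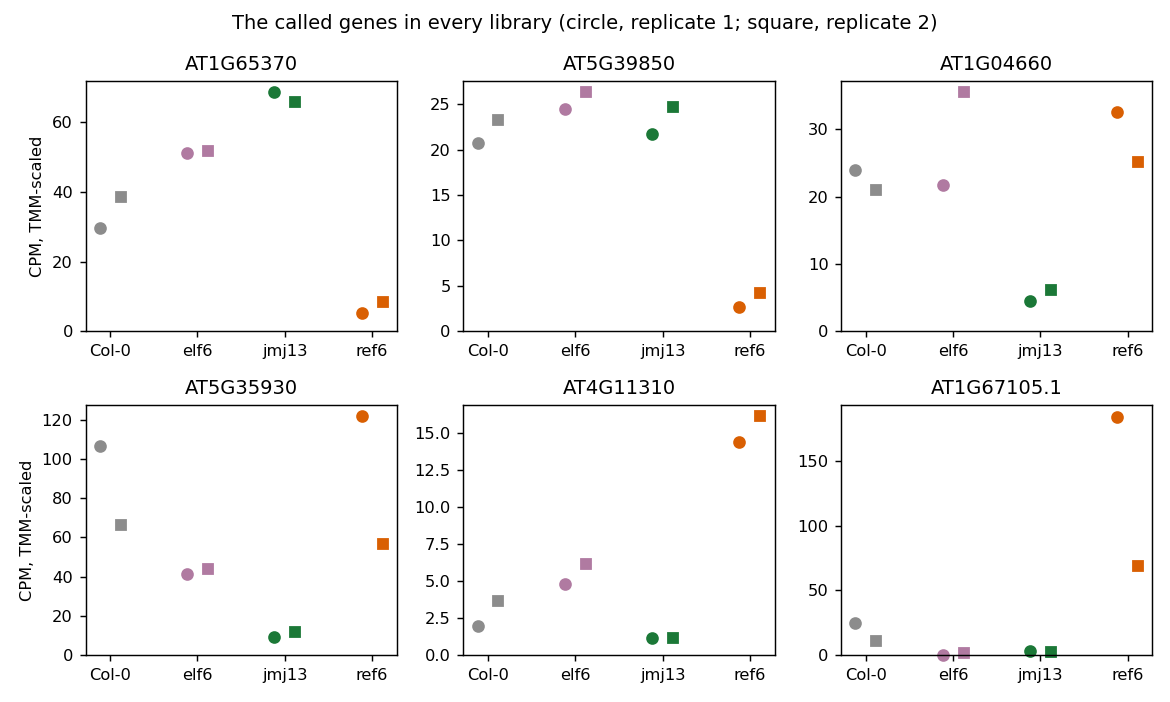
TMM-scaled CPM of the 6 genes past the threshold in each of the 8 libraries, with circles for replicate 1 and squares for replicate 2. In AT1G65370 and AT5G39850 the ref6 libraries are the lowest, and in AT1G04660, AT5G35930 and AT4G11310 the jmj13 libraries are the lowest.

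The 6 genes were also set against Col-0 in the same fit. These comparisons share the jmj13 or ref6 libraries with the one above and share Col-0 with each other. The log2 difference of AT1G65370 was 0.98 in jmj13 and -2.30 in ref6. That of AT5G39850 was 0.08 in jmj13 and -2.65 in ref6. AT4G11310 and AT1G67105.1 lay on opposite sides of Col-0 in the mutants: -1.30 and 2.43 for the protease, -2.87 and 2.83 for the non-coding RNA. None of these passed the test (edgeR, adjusted p = 0.365 and 0.121 for the protease, 0.252 and 0.456 for the RNA). AT5G35930 and AT1G04660 lay at -3.03 and -2.10 in jmj13 and at 0.05 and 0.36 in ref6. Of all these comparisons with Col-0, only that of AT5G39850 in ref6 had an adjusted p under 0.05 (edgeR, 0.044).

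Among the genes nearest the threshold on the higher side, none of which passed it, was INNER NO OUTER (INO), a YABBY transcription factor of the outer ovule integument. INO stood at 5.17 and 4.78 CPM in jmj13 and at 0.791 and 0.621 CPM in ref6, from 72 and 63 against 7 and 8 counts. Col-0 (1.83 and 3.11 CPM) and elf6 (3.87 and 3.99 CPM) were between the mutants. The difference was 2.82 ± 0.45 (edgeR, adjusted p = 0.0927) and 2.98 without ref6 replicate 1. Cpn60beta3, a subunit of the plastid chaperonin that folds proteins, stood at 32.4 and 31.9 CPM against 7.12 and 7.99 CPM (2.09 ± 0.31, adjusted p = 0.0720). AT5G45430, a protein kinase gene, had 257 and 1046 counts in jmj13 and 0 in both ref6 libraries, at least 144-fold higher against a floor of 3 counts per library (edgeR adjusted p = 0.0720). Its jmj13 replicates differed widely, at 18.4 and 79.3 CPM, and reads were also seen in elf6 (59.6 and 20.8 CPM) but in neither Col-0 library. The uncharacterised gene AT1G51670 had a difference of 2.28, the DUF295 gene AT5G03390 of 2.01 (2.63 without ref6 replicate 1), the Lojap-related gene AT1G67620 of 1.64 and the Rossmann-fold gene AT1G07450 of 1.44, each with libraries that did not overlap.

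On the lower side, the genes nearest the threshold included NRT1.1, a nitrate transporter and sensor. It stood at 6.89 and 6.97 CPM in jmj13 and at 26.2 and 21.6 CPM in ref6, a difference of -1.78 ± 0.26 (edgeR, adjusted p = 0.0712). In Col-0 (20.8 and 16.7 CPM) and elf6 (16.2 and 20.21 CPM) it was nearer to ref6. The jacalin-related lectin JAL23 stood at 38.4 and 51.2 CPM against 152 and 164 CPM (-1.82 ± 0.26, adjusted p = 0.0712), with Col-0 and elf6 at 48.7 to 65.0 CPM, nearer to jmj13. LSH10, of the plant-specific ALOG family, stood at 6.32 and 5.99 CPM against 45.7 and 20.7 CPM, and its difference moved from -2.42 to -1.75 without ref6 replicate 1. The non-coding RNA AT3G29644.1 had a difference of -2.50, the hydrolase gene AT4G17470 of -2.92 and the oxygenase gene AT1G06620 of -2.15. None of these passed the adjusted threshold.

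The remaining results are described over lists of genes with a shared role, beside the median difference of all tested genes, 0.04 (0.03 without ref6 replicate 1). No member of any of the 39 lists passed the adjusted threshold in edgeR, so members are given with their values and their unadjusted p. The DESeq2 calls given for some lists stand beside 167 calls among all 19939 tested genes. Libraries that did not overlap, whatever the size of the difference, were found on the higher side for 4485 genes (22.5%) and on the lower side for 3822 genes (19.2%). Without ref6 replicate 1, 376 genes (1.89%) lay on the higher side and 576 genes (2.89%) on the lower side at an unadjusted p under 0.05. With library size as the only scaling the medians are read against the shifted median of all genes, 0.42: relative to it they were -0.74 for jasmonate synthesis, -0.68 for the jasmonate repressors, -0.38 for the stamen factors, -0.93 for the pollen coat, -0.36 for touch and wound genes, 0.40 for carpel and ovule genes and 0.33 for the cell cycle, while the unshifted medians of the stamen and the touch lists turned above 0. In whole buds, fewer cells of a type and less RNA per cell cannot be told apart.

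**Figure D3:**
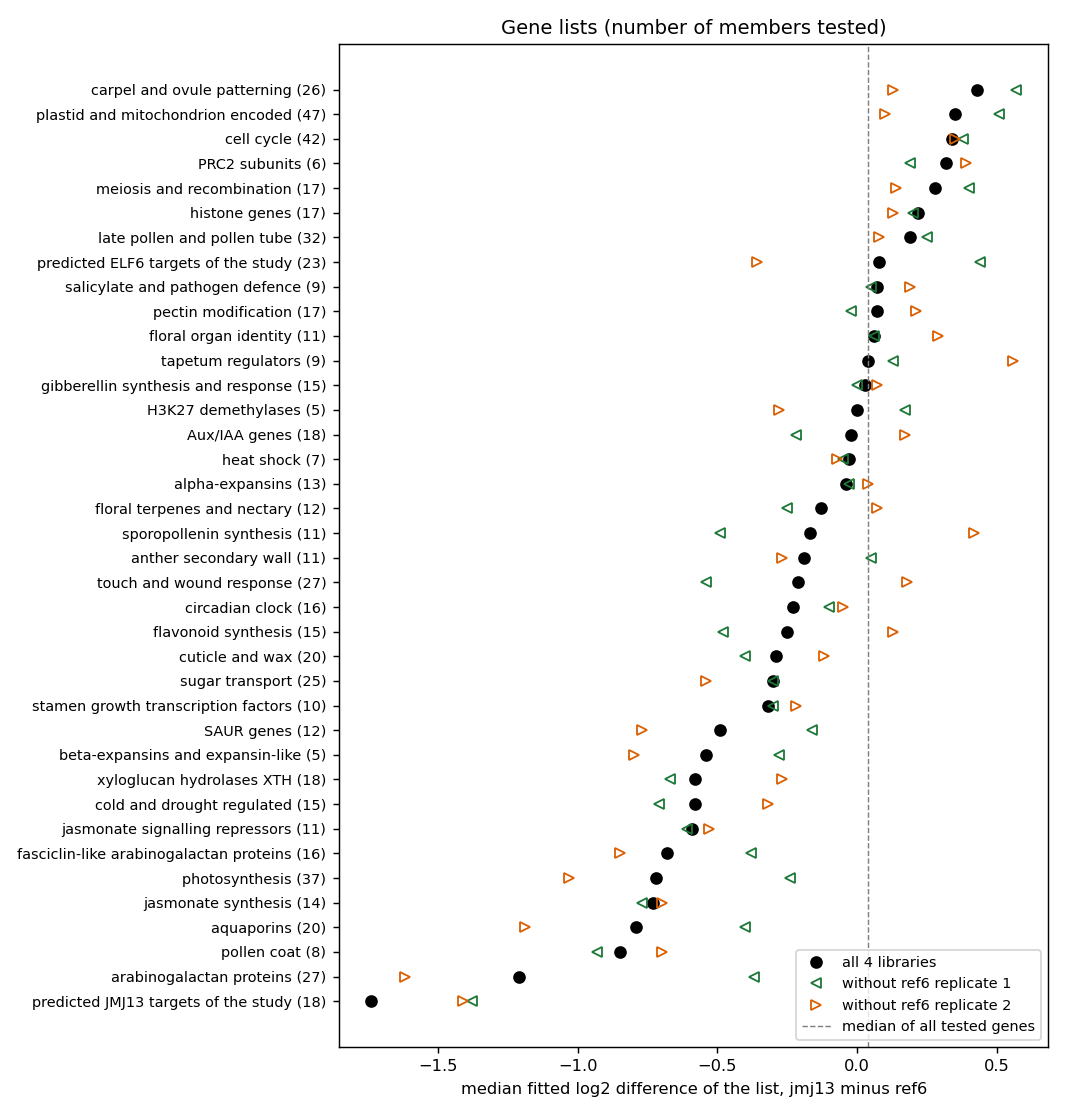
Median fitted log2 difference, jmj13 minus ref6, of each list with its number of tested members in parentheses, for all 4 libraries (black) and without either ref6 library (open triangles). The dashed line is the median of all tested genes, 0.04. The jasmonate synthesis list keeps its place, at -0.77 and -0.70 without ref6 replicate 1 and 2, whereas the arabinogalactan protein list moves from -1.21 to -0.37 without ref6 replicate 1.

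Most jasmonate genes had differences below 0. Jasmonates are lipid-derived hormones that flowers need for stamen filament elongation, anther opening and pollen maturation. They are made from plastid fatty acids by lipoxygenases, allene oxide synthase and allene oxide cyclases, and their signal is held back by JAZ proteins, which bind MYC transcription factors. Since JAZ genes and several synthesis genes are themselves induced by the hormone, both groups are commonly read as outputs of the pathway.

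All 14 tested synthesis genes had differences below 0, with a median of -0.73 (-0.77 without ref6 replicate 1). At an unadjusted p under 0.05 were 7 of 14 on the lower side and none on the higher side, and 10 of 14 had libraries that did not overlap. DESeq2 called 3 of the 14. LOX2, the plastid lipoxygenase, stood at 203 and 208 CPM in jmj13 and at 577 and 575 CPM in ref6, with Col-0 (297 and 310 CPM) and elf6 (421 and 407 CPM) between. The replicates of LOX2 were close in both genotypes, and its difference was -1.49 ± 0.26 (edgeR, adjusted p = 0.122), the same without ref6 replicate 1. AOS, the allene oxide synthase, stood at 26.2 and 34.03 CPM against 66.0 and 53.4 CPM (-0.99 ± 0.26, adjusted p = 0.362). Among the cyclases, AOC1 stood at 2.44 and 2.12 CPM against 13.8 and 6.44 CPM, AOC2 at 2.87 and 3.26 CPM against 18.7 and 6.05 CPM, and AOC4 at 144 and 150 CPM against 327 and 205 CPM. AOC1 and AOC2 are 86.1% identical over 973 bases, so their reads may be shared, and both were highest in ref6 replicate 1: without it their differences were -1.49 and -0.98 in place of -2.13 and -1.99.

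Of the JAZ repressors, all 11 tested had differences below 0, with a median of -0.59 (-0.61 without ref6 replicate 1). At an unadjusted p under 0.05 were 4 of 11, all on the lower side, and DESeq2 called 1 of them. JAZ9 stood at 143 and 177 CPM in jmj13 and at 314 and 300 CPM in ref6 (-0.94 ± 0.27, edgeR, adjusted p = 0.414). JAZ7 stood at 3.59 and 7.88 CPM against 15.6 and 26.8 CPM (-1.89 ± 0.50, adjusted p = 0.362), and the difference widened to -2.22 without ref6 replicate 1. This gene is also a JMJ13 target predicted by the study, chosen in part on these jmj13 libraries. For JAZ10 the levels were 11.2 and 15.5 CPM against 31.3 and 22.6 CPM, and for JAZ3 21.2 and 18.5 CPM against 41.1 and 24.4 CPM. The difference of JAZ3 was -0.72 with all libraries and -0.30 without ref6 replicate 1. VSP1 and VSP2, acid phosphatase-like storage proteins widely used as jasmonate response markers, stood at 1945 and 2290 CPM against 4257 and 4813 CPM and at 561 and 612 CPM against 1176 and 1548 CPM. Their differences were -1.10 and -1.21 (edgeR adjusted p = 0.416 and 0.299), with libraries that did not overlap; they are 84.1% identical over 963 bases. VSP1, VSP2 and JAZ8 also belong to the touch and wound list, whose genes respond to handling. Of its 27 tested members, 18 lay below 0 and 9 above. At an unadjusted p under 0.05, 4 were on the lower side and 1 on the higher side. The median of that list moved from -0.21 to -0.54 without ref6 replicate 1. Whether handling had a part in the jasmonate differences was not tested.

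MYB21 and MYB24, transcription factors that act in the jasmonate response of stamens, were the members of smallest p among the 10 stamen growth factors. MYB24 stood at 9.33 and 8.79 CPM in jmj13 and at 54.9 and 23.595 CPM in ref6 (-2.11 ± 0.38, edgeR, adjusted p = 0.143), and at 46.3 and 32.5 CPM in Col-0. MYB21 stood at 20.7 and 22.2 CPM against 65.0 and 29.8 CPM (-1.14 ± 0.40, adjusted p = 0.488). In both genes ref6 replicate 1 was the highest of the 4 libraries, and without it the differences were -1.38 and -0.48. Annotated antisense genes overlap both, over 2591 bases at MYB24, and since the strand use of the counting is not given in the sources used here, reads from the partners cannot be told apart. The list as a whole had a median of -0.32, with 2 of 10 at an unadjusted p under 0.05.

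**Figure D4:**
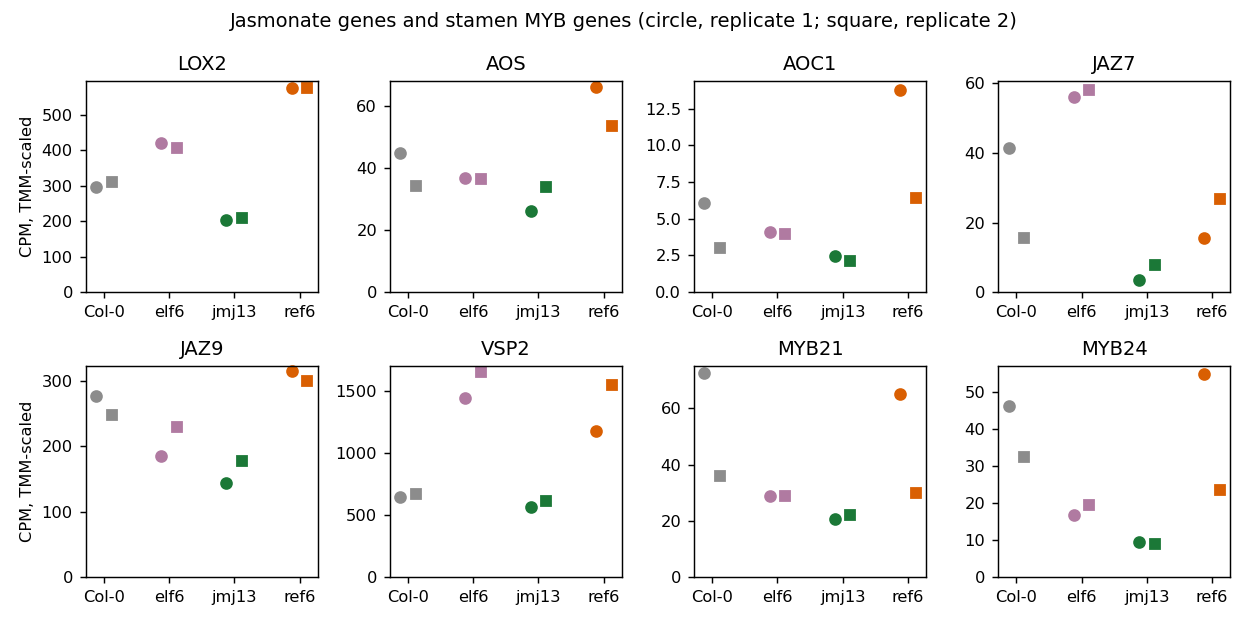
TMM-scaled CPM of jasmonate synthesis, repressor and response genes and of MYB21 and MYB24 in each of the 8 libraries, with circles for replicate 1 and squares for replicate 2. In each panel both jmj13 libraries lie below both ref6 libraries, and for AOC1, MYB21 and MYB24 ref6 replicate 1 lies well above replicate 2.

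Promoter sequences are shown for 3 jasmonate genes and for Cpn60beta3, because they hold the words that bear on the factors named here: the motif recognised by REF6 zinc fingers (CTCTGCTC, CTCTGCTT, CTCTGTTC or CTCTGTTT, on either strand) and the G-box CACGTG, which MYC factors bind and which reads the same on both strands. The G-box search was chosen after the values were seen. Each sequence runs 5′ to 3′ along the gene's strand from 250 bases before to 50 bases after the annotated start, from RefSeq, build TAIR10.1, with matches in capitals. JAZ7 is at chr2:14572780-14573079 (plus strand), JAZ3 at chr3:6119457-6119756 (plus strand), AOS at chr5:17099546-17099845 (minus strand) and Cpn60beta3 at chr5:22873416-22873715 (plus strand).
JAZ7: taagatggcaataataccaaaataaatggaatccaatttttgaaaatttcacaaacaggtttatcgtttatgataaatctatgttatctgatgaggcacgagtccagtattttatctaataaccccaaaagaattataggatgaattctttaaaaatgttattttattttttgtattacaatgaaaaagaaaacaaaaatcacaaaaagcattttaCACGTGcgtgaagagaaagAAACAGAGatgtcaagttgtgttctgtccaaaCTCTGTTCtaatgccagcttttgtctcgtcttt
JAZ3: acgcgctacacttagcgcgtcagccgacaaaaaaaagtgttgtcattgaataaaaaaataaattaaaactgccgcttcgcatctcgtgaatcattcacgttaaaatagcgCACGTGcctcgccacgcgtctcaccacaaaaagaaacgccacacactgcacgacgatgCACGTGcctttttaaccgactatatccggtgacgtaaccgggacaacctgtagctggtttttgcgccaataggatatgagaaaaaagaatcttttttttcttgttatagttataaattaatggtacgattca
AOS: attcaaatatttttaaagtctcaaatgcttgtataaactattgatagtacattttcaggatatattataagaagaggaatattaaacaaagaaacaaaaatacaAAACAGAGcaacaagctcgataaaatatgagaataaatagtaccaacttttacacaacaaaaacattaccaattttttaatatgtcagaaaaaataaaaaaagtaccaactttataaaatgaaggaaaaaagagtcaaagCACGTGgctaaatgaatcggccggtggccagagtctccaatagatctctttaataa
Cpn60beta3: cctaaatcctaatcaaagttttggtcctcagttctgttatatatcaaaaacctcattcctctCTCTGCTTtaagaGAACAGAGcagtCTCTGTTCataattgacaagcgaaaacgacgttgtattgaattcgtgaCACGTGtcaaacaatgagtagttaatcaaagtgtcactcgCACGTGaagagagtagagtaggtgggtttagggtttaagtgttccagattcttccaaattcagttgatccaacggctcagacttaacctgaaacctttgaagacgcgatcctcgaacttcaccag

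Counted over 19812 promoters of tested genes, the REF6 motif was present in 7.60% and the G-box in 8.76%. Neither word occurred in the promoters of the 6 genes past the threshold. The G-box was in 4 of 11 JAZ promoters (36.4%) and in 2 of 14 synthesis gene promoters (14.3%). The REF6 motif was in 1 of 11 JAZ promoters and 1 of 14 synthesis gene promoters. In JAZ7 the 2 REF6 words begin at -15 and 18 and the G-box at -34 from the start, in JAZ3 the G-boxes begin at -140 and -82, and in AOS the REF6 word begins at -146 and the G-box at -6. Cpn60beta3 held 3 REF6 words, at -188, -175 and -163, and 2 G-boxes, at -115 and -75. These matches describe the letters of the windows and are not evidence of binding.

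Of the genes of carpel and ovule patterning, 19 of 26 had differences above 0 and 7 below. Of these 26, 6 were on the higher side and none on the lower side at an unadjusted p under 0.05, and the median was 0.43 (0.57 without ref6 replicate 1, again with 6 on the higher side). Without ref6 replicate 2 the median was 0.13, beside 0.08 for all genes. DESeq2 called 2 of the 26. Beside INO, SEEDSTICK (STK), a MADS-box factor that specifies ovule identity, stood at 15.7 and 10.005 CPM in jmj13 and at 3.17 and 4.04 CPM in ref6 (1.82 ± 0.34, edgeR, adjusted p = 0.156). Col-0 and elf6 had STK levels of 6.15 to 9.08 CPM, between the mutants. SHATTERPROOF2 (SHP2), a related MADS-box factor of carpel and fruit margins, stood at 10.98 and 6.97 CPM against 2.60 and 4.50 CPM (1.32 ± 0.41, adjusted p = 0.449), and its partner SHP1 at 9.83 and 9.17 CPM against 4.97 and 6.13 CPM. An antisense gene overlaps SHP2 over 1756 bases. AINTEGUMENTA (ANT), a growth regulator of ovules and floral organs, stood at 53.2 and 45.9 CPM against 31.2 and 28.2 CPM (0.74 ± 0.25, adjusted p = 0.473). ALCATRAZ (ALC), needed for fruit opening, stood at 24.5 and 22.1 CPM against 9.83 and 15.8 CPM, but the opposite-strand gene AT5G67100 covers all 1326 bases of it. CRABS CLAW (CRC), a YABBY factor of carpel and nectary, did not separate the genotypes, at 64.7 and 84.4 CPM against 80.8 and 69.7 CPM. Of the floral organ identity genes, AGAMOUS (AG) stood at 24.0 and 23.65 CPM against 11.4 and 18.6 CPM and SEP1 at 28.4 and 25.7 CPM against 9.83 and 20.7 CPM. Without ref6 replicate 1 their differences moved from 0.66 to 0.36 and from 0.81 to 0.38. PI was lower in jmj13, at 52.5 and 42.3 CPM against 63.6 and 75.2 CPM. Of the 11 tested members 7 lay above 0 and 4 below, and the list's median was 0.06.

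The pollen coat, a lipid and protein layer deposited by the tapetum, is rich in glycine-rich oleosin-like proteins. All 8 members tested were non-overlapping and lower in jmj13, with a median of -0.85 (-0.93 without ref6 replicate 1); 5 of 8 had an unadjusted p under 0.05, and 7 of 8 without ref6 replicate 1. DESeq2 called 2 of them. GRP19 stood at 1220 and 1186 CPM in jmj13 and at 2818 and 2575 CPM in ref6 (-1.16 ± 0.35, edgeR, adjusted p = 0.444), GRP20 at 395 and 421 CPM against 818 and 970 CPM, and GRP18 at 104 and 91.1 CPM against 226 and 174 CPM. The 11 sporopollenin genes, which build the outer pollen wall in the same cells, overlapped between genotypes without exception, as in CYP703A2 (40.5 and 35.8 CPM against 34.02 and 71.1 CPM) and ACOS5 (37.0 and 37.2 CPM against 33.8 and 64.0 CPM). Here ref6 replicate 1 was the lower ref6 library, and without it the list's median moved from -0.17 to -0.49, with 4 of 11 on the lower side at an unadjusted p under 0.05. The difference between the lists was not tested. Tapetum regulators (median 0.04), genes of late pollen and the pollen tube (0.19) and genes of the anther's secondary wall (-0.19, with 8 of 11 below 0) each had at most 1 member at an unadjusted p under 0.05. The tapetum member was TPD1, a secreted protein that promotes tapetal fate, at 10.3 and 15.5 CPM against 5.43 and 8.62 CPM. Without ref6 replicate 1 the list medians were 0.13 for tapetum regulators, 0.25 for late pollen genes and 0.05 for anther wall genes.

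**Figure D5:**
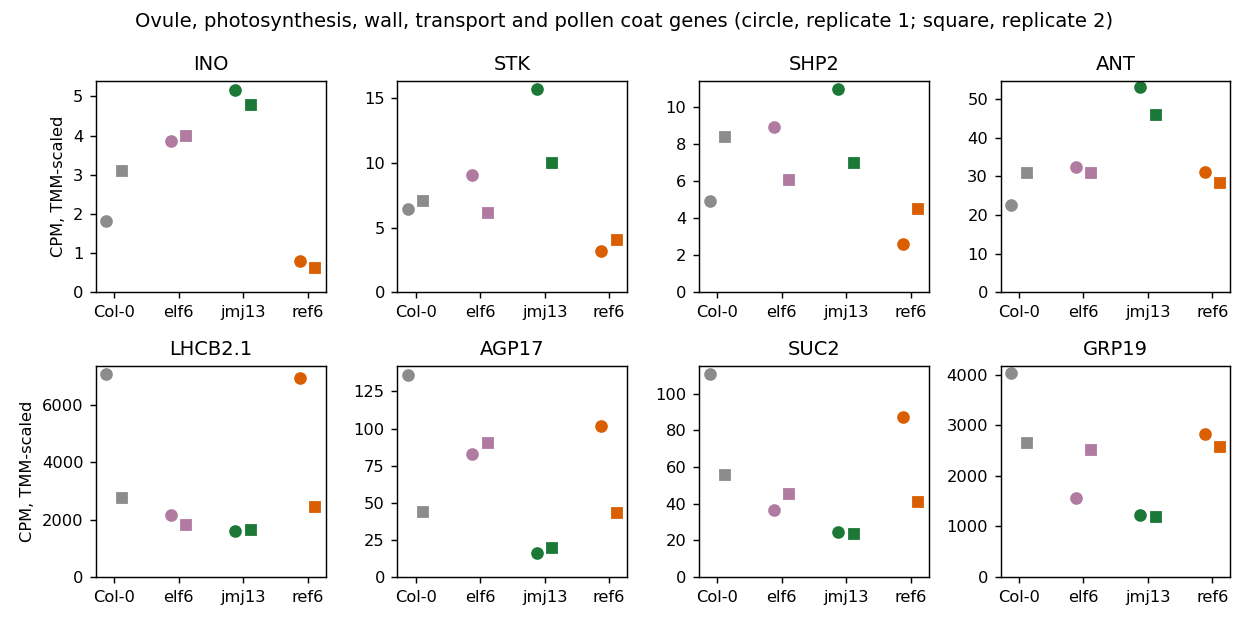
TMM-scaled CPM of ovule and carpel genes (INO, STK, SHP2, ANT) and of LHCB2.1, AGP17, SUC2 and GRP19 in each of the 8 libraries, with circles for replicate 1 and squares for replicate 2. Both jmj13 libraries are above both ref6 libraries in the first row of panels, and in LHCB2.1, AGP17 and SUC2 replicate 1 of Col-0 and of ref6 stand above their replicate 2.

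Of 42 tested cell cycle genes, 36 had differences above 0 and 27 had non-overlapping libraries on the higher side, with none on the lower side, but 2 had an unadjusted p under 0.05 (1 without ref6 replicate 1), a share near that of all genes. The median was 0.34 (0.38 without ref6 replicate 1 and 0.35 without ref6 replicate 2). Together the members took 0.0880% and 0.0870% of all TPM in jmj13 and 0.0435% and 0.0646% in ref6. These shares are not corrected for library composition, and the all-gene median difference as a ratio of mean TPM was itself 0.45. The 2 genes at an unadjusted p under 0.05 were inhibitors of cyclin-dependent kinases, which restrain the cycle. They were KRP1 (1.72 and 1.74 CPM against 0.678 and 0.466 CPM) and KRP3 (4.59 and 4.93 CPM against 1.92 and 2.56 CPM). Of 17 tested histone genes, 12 had differences above 0 and 5 below, with a median of 0.22 (0.2 without ref6 replicate 1). At an unadjusted p under 0.05, 2 were on the higher side. HTB2, a histone H2B gene, stood at 193 and 179 CPM against 71.1 and 124 CPM. HIS4, a histone H4 gene, stood at 34.6 and 33.1 CPM against 16.3 and 25.1 CPM. Of 17 tested meiotic genes, 13 had differences above 0 and 4 below, with a median of 0.28 (0.4 without ref6 replicate 1). At an unadjusted p under 0.05, 1 was on the higher side. This was SPO11-2, which takes part in forming meiotic DNA breaks, at 8.40 and 6.52 CPM against 3.62 and 4.42 CPM.

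The study predicted targets of JMJ13 and of ELF6 and narrowed them to genes that also differed between elf6 and jmj13; the lists used here are these narrowed subsets. That filter used these jmj13 libraries, so the ELF6 list is not independent evidence of a direction. The JMJ13 list was also chosen in part on these jmj13 libraries and is not independent evidence of a direction. Of its 18 members, 11 were on the lower side at an unadjusted p under 0.05 and none on the higher side, with a median of -1.74 (-1.38 without ref6 replicate 1, and -1.58 with the 4 members near the detection floor set to their bounds). DESeq2 called 5. AT3G19680, a DUF1005 gene, stood at 21.8 and 30.9 CPM against 68.0 and 180 CPM, the purine permease PUP18 at 5.10 and 6.82 CPM against 18.7 and 19.9 CPM, and the wall enzyme XTH24 at 11.8 and 12.4 CPM against 27.6 and 25.8 CPM. The arabinogalactan genes AGP14 (2.44 and 4.02 CPM against 32.2 and 8.30 CPM) and AGP7 (8.04 and 7.81 CPM against 38.3 and 16.9 CPM) were highest in ref6 replicate 1 among the 4 libraries compared, with differences of -2.64 and -1.79, and of -1.36 and -1.09 without it, and AGP22 and SAUR26 stood at or below 1.81 CPM in all 4 libraries compared. The lectin LEC, with 0.072 to 0.379 CPM, was too low to compare. In this list the REF6 motif was in 5 of 18 promoters (27.8%), beside 7.60% of all tested genes. It was in 3 of 26 carpel and ovule promoters (11.5%), 2 of 27 arabinogalactan promoters (7.41%) and 0 of 8 pollen coat promoters. These shares were not tested. The ELF6 list had a median of 0.08 and no member at an unadjusted p under 0.05, as in EXPA1 (77.5 and 86.9 CPM against 79.8 and 48.1 CPM), EXPA3 (85.6 and 83.0 CPM against 216 and 91.3 CPM; -0.87, and -0.11 without ref6 replicate 1) and EXPB3 (200 and 232 CPM against 291 and 262 CPM). Without ref6 replicate 1, 3 of its 23 members were on the higher side at that level and the median was 0.44.

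Cell wall genes were split by family. Among xyloglucan hydrolases (XTH), which cut and rejoin wall polymers, 5 of 18 were on the lower side and 1 on the higher side at an unadjusted p under 0.05, with a median of -0.58 (-0.67 without ref6 replicate 1). Those on the lower side include XTH24, which is also on the JMJ13 list, chosen in part on these jmj13 libraries. XTH7 stood at 10.05 and 16.2 CPM in jmj13 and at 53.5 and 50.5 CPM in ref6 (-1.98 ± 0.37, edgeR, adjusted p = 0.152), and XTH4 at 102 and 124 CPM against 253 and 187 CPM. The expansin-like genes EXLA1 (3.66 and 4.62 CPM against 9.27 and 19.9 CPM) and EXLA2 (10.7 and 12.8 CPM against 20.5 and 48.1 CPM) were, of the 4 libraries compared, highest in ref6 replicate 2, while elf6 was higher still, at 94.4 and 115 CPM for EXLA1 and 150 and 193 CPM for EXLA2. All 5 tested beta-expansin and expansin-like genes lay below 0, with a median of -0.54 (-0.28 without ref6 replicate 1). Expansins loosen walls during growth. Of 13 alpha-expansins 7 lay below 0 and 6 above, with a median of -0.04. EXPA5 stood at 63.2 and 69.5 CPM against 183 and 132 CPM, and EXPA14 at 3.09 and 2.80 CPM against 1.36 and 1.09 CPM. Without ref6 replicate 1 the difference moved from 0.76 to 1.44 in EXPA15 and from -1.23 to -0.08 in EXPA11.

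In the arabinogalactan proteins, heavily glycosylated proteins of the cell surface, 13 of 27 members were on the lower side at an unadjusted p under 0.05 and the median was -1.21. Without ref6 replicate 1 the median was -0.37 and 6 were on that side. AGP17 stood at 16.1 and 19.8 CPM against 102 and 43.4 CPM (-2.01, and -1.27 without ref6 replicate 1), and AGP10, which an antisense gene overlaps over 337 bases, at 30.4 and 31.8 CPM against 114 and 75.8 CPM. The fasciclin-like members of the family (16 tested) had a median of -0.68, and -0.38 without that library. FLA12, a gene of secondary walls, stood at 9.47 and 13.2 CPM against 45.6 and 28.2 CPM (-1.70 ± 0.32, edgeR, adjusted p = 0.152), FLA2 at 128 and 151 CPM against 432 and 309 CPM, and FLA9 at 30.4 and 37.4 CPM against 84.2 and 92.8 CPM. FLA9 did not depend on ref6 replicate 1, with differences of -1.38 with it and -1.45 without. DESeq2 called 5 arabinogalactan and 3 fasciclin-like members. The arabinogalactan list includes AGP7, AGP14 and AGP22, which are also on the JMJ13 list, so its counts are not independent of that choice.

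Values of photosynthesis genes moved with the same library. Of 37 members, 32 had non-overlapping libraries on the lower side and 9 an unadjusted p under 0.05, with a median of -0.72, which moved to -0.24, with no member at p under 0.05, without ref6 replicate 1. LHCB2.1, a light-harvesting protein of photosystem II, stood at 1594 and 1654 CPM in jmj13 and at 6937 and 2454 CPM in ref6, and LHCB2.2, 94.3% identical to it over 1035 bases, at 1413 and 1510 CPM against 5747 and 2299 CPM. The photosystem I subunit gene PSAG stood at 940 and 973 CPM against 2817 and 1379 CPM. LHCB4.3 was less split, at 186 and 206 CPM against 378 and 306 CPM. Leaving out ref6 replicate 1 moved the difference from -1.53 to -0.60 in LHCB2.1, from -1.46 to -0.65 in LHCB2.2 and from -1.13 to -0.53 in PSAG. Together the list took 10.6% and 10.8% of TPM in jmj13 and 13.7% and 11.8% in ref6; the part that this share plays in the other results was not tested.

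Aquaporins, the channels for water and small solutes, had a median of -0.79, and -0.40 without ref6 replicate 1, with 10 and 3 of 20 members on the lower side at an unadjusted p under 0.05. TIP4;1 stood at 3.16 and 6.14 CPM against 20.8 and 10.2 CPM, PIP2;4 at 14.6 and 20.16 CPM against 70.4 and 41.8 CPM, PIP1;5 at 63.3 and 84.8 CPM against 172 and 136 CPM, and the boric acid channel NIP5;1 at 14.5 and 14.8 CPM against 55.0 and 23.3 CPM. In each of these ref6 replicate 1 was the highest of the 4 libraries compared, and without it the difference moved from -1.73 to -1.13 in TIP4;1 and from -1.41 to -0.67 in NIP5;1. Of 25 sugar transport genes, 8 were on the lower side at that level, and 1 without ref6 replicate 1. SUC2, the sucrose transporter of phloem companion cells, stood at 24.4 and 23.3 CPM against 87.2 and 41.0 CPM (-1.42, and -0.78 without ref6 replicate 1), and the vacuolar fructose carrier SWEET17 at 57.6 and 74.9 CPM against 160 and 109 CPM.

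Genes regulated by cold and drought had a median of -0.58 (-0.71 without ref6 replicate 1), with 6 of 15 on the lower side at an unadjusted p under 0.05 in both cases. GolS1, the galactinol synthase that starts raffinose synthesis, stood at 32.4 and 36.1 CPM in jmj13 and at 60.0 and 97.3 CPM in ref6 (-1.20 ± 0.31, edgeR, adjusted p = 0.361). RD22, a dehydration-responsive gene, stood at 166 and 184 CPM against 336 and 341 CPM, and COR413IM1, a chloroplast inner membrane protein gene, at 57.9 and 55.0 CPM against 130 and 99.1 CPM. The touch and wound response genes took 0.341% and 0.399% of TPM in jmj13 and 0.404% and 0.749% in ref6. Most of this share came from VSP1 and VSP2, also jasmonate response markers, with means of 4351 and 999 TPM in ref6. It therefore mainly follows these genes, and the part of handling in these differences was not tested. The median of the touch and wound list was -0.21, and -0.54 without ref6 replicate 1.

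Gibberellin genes lay on both sides. Gibberellins promote stem and stamen growth, GA20 oxidases make their precursors and GA2 oxidases inactivate them. GA20OX2 stood at 3.09 and 2.50 CPM in jmj13 and at 0.791 and 0.466 CPM in ref6 (2.17 ± 0.73, edgeR, adjusted p = 0.475). Of the inactivating enzymes, GA2OX1 stood at 4.52 and 4.02 CPM against 0.678 and 2.56 CPM (1.33, and 0.74 without ref6 replicate 1), GA2OX2 at 12.4 and 16.6 CPM against 18.0 and 28.0 CPM and GA2OX8 at 0.072 and 0.531 CPM against 1.24 and 2.02 CPM. The median of 15 members was 0.03, and 0 without ref6 replicate 1. In the list of floral terpenes and nectary the median was -0.13 (-0.25 without ref6 replicate 1), with 7 of 12 members below 0 and 5 above. At an unadjusted p under 0.05, 3 were on the lower side. Its members of smallest p included BSMT1, a carboxyl methyltransferase of benzoate and salicylate (3.44 and 3.33 CPM against 8.82 and 8.15 CPM; -1.32 ± 0.30, adjusted p = 0.258), and TPS10, a monoterpene synthase (7.18 and 14.6 CPM against 27.7 and 28.3 CPM). Lists for the clock, heat shock, salicylate and pathogen defence, Aux/IAA repressors and pectin modification had medians between -0.23 and 0.07. Each had at most 3 members at an unadjusted p under 0.05 in either direction. Without ref6 replicate 1 these medians lay between -0.22 and 0.05, with that of Aux/IAA moving from -0.02 to -0.22.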

How the data were processed

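The authors aligned single-end reads of mRNA-enriched bud RNA to the Arabidopsis genome and deposited, for each of 8 libraries, RSEM expected counts per gene and FPKM values, scaled by gene length and depth. Per the labels, Bowtie2, RSEM and TAIR10 were used; versions and the strand use of the counting are not given in the sources used here.

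Here the expected counts were rounded, 11373306 to 12048319 per library, and tested with edgeR 4.0.16 in R 4.3.3 (TMM, filterByExpr by genotype, glmQLFit and glmQLFTest on all 8 libraries, contrast jmj13 minus ref6, Benjamini-Hochberg over 19939 genes). Genes were called at an adjusted p under 0.05 and at least 2-fold. The SE was the log2 difference divided by the square root of F. The procedure was tested on simulated data. The number of libraries, 2 per genotype, limits the precision, and an exact permutation test of 2 against 2 cannot reach 0.05. TPM was computed from the deposited FPKM. DESeq2 1.42.0, limma 3.58.1 on log2(FPKM + 1) or (FPKM + 0.1), NOISeq criteria recomputed from their description (probability 0.8), other scalings and filters, and leaving out each library were alternatives; a term for the libraries that stand apart, and leaving out Col-0 replicate 1, were added after seeing the data.

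Members and lists were chosen with earlier results of these data known. Genes were named by rule: demethylases and PRC2 subunits; up to 10 genes per direction, called first and then by smallest p, with non-overlapping libraries and at least 5 TPM; and in each list the members of smallest p, beside genes the study discusses. SHP1, ALC, AOC4 and the paralogs were named after their values were seen. Of 25738 listed genes, 25391 matched a RefSeq locus, and 33 list entries matched no single gene. A floor is 3 counts in a library and covers counting error only.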

Additional observations from a re-analysis of the deposited data

How the results depend on the processing

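With 2 libraries per genotype the count of called genes, 6, changed with the filter, the model, the method and the libraries fitted. It was 146 with no filter on low counts, 3 with a mean of at least 50 counts, 3 in a fit of the 4 libraries alone, 76 with a term for the libraries that stand apart, 167 with DESeq2 and 127 with the NOISeq criteria. Leaving out 1 library gave 0 to 39, with 0 without jmj13 replicate 1 or 2, 4 without ref6 replicate 1 (3 of the 6 among them) and 39 without ref6 replicate 2 (all 6 among them). The count at an unadjusted p under 0.05, 1788, ranged from 579 to 4130 when a library was left out. The count at least 2-fold apart without overlap, 1434, was 2458 with no filter, 569 with a mean of at least 50 counts, 757, 2297 and 737 with limma on log2(FPKM + 1), log2(FPKM + 0.1) and genes of at least 1 FPKM, and 2209 as a ratio of mean TPM; it ranged from 1416 to 4190 with a library left out. The share of unadjusted calls on the higher side, 38.1%, was 25.9% with DESeq2 and 86.4% to 87.4% with limma, whose values are not corrected for library composition. As a block, the replicate number gave 16 calls, all 6 among them, but no label ties libraries of the same number together. The correlation of the replicate differences over all genes was 0.063 for jmj13 and ref6, 0.419 for Col-0 and ref6, 0.31 for elf6 and jmj13 and 0.024 to 0.104 for the other pairs of genotypes. Of the 102 named genes followed over the alternatives, 6 were past the threshold in the main fit. For the others, keeping a side of the threshold means staying short of it. Of 1720 values of these 102 genes, 1527 kept their direction and side of the threshold, 116 moved past it and 36 moved below it. Those that turned were small or low: JMJ13 was -0.25 with the term for libraries set apart and -0.22 to 0.48 with a library left out, and ELF6 -0.06 to 0.17. JMJ30 was 0.43 with library size alone, 0.03 with upper-quartile scaling, 0.02 with the block, 0.44 with the term and 0.31, 0.44 and 0.31 with limma. JMJ32 was 0.29 with library size alone, 0.20 with the term and 0.13 and 0.25 with limma. CLF was 0.37 and 0.05 with the same scalings as JMJ30 and 0.29, 0.38 and 0.29 with limma, and CRC 0.39 and 0.05, 0.01 with a mean of at least 50 counts and 0.39 with limma. EXPB3 was 0.05 with library size alone and 0.06 with limma, CYP703A2 0.04 or 0.05 and ACOS5 0.08 or 0.09 with limma. With a library left out, JMJ30 ranged from -0.54 to 0.63, JMJ32 from -0.28 to 0.03, CLF from -0.15 to 0.10, CRC from -0.22 to 0.16, LEC from -0.32 to 1.92, CYP703A2 from -0.90 to 0.16 and ACOS5 from -0.79 to 0.14. Apart from the construction of each alternative, the cause was not tested.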

Other observations

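Genes encoded in the plastid and mitochondrion were detected although mRNA was enriched: 47 of 213 were tested. None was called by edgeR or DESeq2, 4 were on the higher side in jmj13 and none on the lower side at an unadjusted p under 0.05, and the median difference was 0.35 (0.51 without ref6 replicate 1). Among nuclear lists without a called member in edgeR, cuticle and wax genes had a median of -0.29 (-0.4 without ref6 replicate 1). Of these 20 genes, 2 were on the lower side at that level. Flavonoid synthesis genes had a median of -0.25 (-0.48 without ref6 replicate 1), with 2 of 15 on the lower side.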
